A study of Homo sapiens with 15 samples.

Results

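Messenger RNA levels of 9 genes of lipid droplet coating, budding and triglyceride synthesis were followed in the clear cell renal cell carcinoma (ccRCC) lines CAKi-1 and 786O with and without loss of *ANGPTL4*. The members were chosen by symbol, as a list of 10 genes that build or cover lipid droplets (*PLIN2*, *PLIN3*, *PLIN4*, *PLIN5*, *HILPDA*, *CIDEB*, *CIDEC*, *DGAT1*, *DGAT2* and *FITM2*). Of these, 9 were found among the 16296 genes of CAKi-1 and the 16188 genes of 786O, and *CIDEC* was not analysed here. Both are human ccRCC cell lines, of which 786O lacks functional VHL and CAKi-1 carries it, and poly(A) RNA was sequenced in CAKi-1 from 4 WT and 5 A4KO libraries, and in 786O from 3 libraries of each genotype. A4KO cells had been transfected with Cas9 protein and a guide RNA against *ANGPTL4*, and clones that had lost its mRNA were combined. The 786O WT cells are combined clones that were transfected in the same way and kept *ANGPTL4*. For the CAKi-1 WT cells the labels describe combined clones and the methods describe parental cells, so that transfection and cloning cannot be told apart from the knockout in that line with certainty. In 786O the A4KO and WT cells are pools of different clones, so differences between clones cannot be told apart from the knockout. Libraries of a pool do not repeat the knockout. Since clones were pooled, a change in all cells and a change in the share of a clone cannot be told apart either. The labels do not say whether libraries of a group came from separate cultures, so p-values measure the spread between libraries, which may be technical.

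A lipid droplet is a core of triglyceride and sterol ester under a single layer of phospholipid. Triglyceride is made in the endoplasmic reticulum by the acyltransferases DGAT1 and DGAT2, it is packed into budding droplets with the help of FITM2, and the droplet surface is then covered by perilipins, which restrain lipases. CIDE proteins let droplets fuse and grow, and HILPDA, a small protein induced by hypoxia, inhibits adipose triglyceride lipase. Storage of such droplets gives ccRCC cells their clear cytoplasm. *PLIN2* and *HILPDA* are known targets of hypoxia-inducible factors (HIF) and of the PPAR nuclear receptors, and *ANGPTL4*, which encodes a secreted inhibitor of lipoprotein lipase, is a target of both as well.

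Levels are given as TPM, the share of a transcript in a library scaled to transcript length, and can therefore be set side by side between genes. A4KO was compared with WT in each line with limma on log2(TPM + 1). This scale understates the changes of genes near or below 1 TPM. A change was called at an adjusted p of at most 0.05, adjusted after Benjamini and Hochberg over every gene of the line. A stricter call also asked that the log2 fold change be at least 1 in size. The labels give a nominal depth of 3000000 reads per sample, but TPM does not keep the reads of each library, so the number behind a value is not known, and at such a depth values below 1 TPM would rest on few reads.

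The CAKi-1 WT libraries held *ANGPTL4* at 74.9, 83.2, 86.9 and 71.7 TPM, and A4KO libraries 1 to 5 held 7.26, 2.87, 2.87, 6.47 and 2.90 TPM. In 786O, WT libraries held 20.6, 17.6 and 18.1 TPM and A4KO libraries 2.19, 2.17 and 1.86 TPM. The clones had been selected for this loss, so it checks the labels and is no finding. CAKi-1 A4KO replicates 1 and 4 stood apart from replicates 2, 3 and 5 across the transcriptome. The root mean square difference of log2 values over 12680 genes was 0.178 between replicates 1 and 4 and 0.342 to 0.403 between either of them and the others, while replicates 2, 3 and 5 differed from each other by 0.182 to 0.211. The renal markers *PAX8*, *KRT8*, *KRT18* and *VIM* summed to 5261 to 6317 TPM in CAKi-1 WT and to 2720 to 3648 TPM in A4KO. The sum was carried by *VIM* and the keratins, while *PAX8*, a factor of the renal lineage, was at 172 ± 23.4 TPM in WT and 186 ± 32.3 TPM in A4KO (0.11, limma adjusted p = 0.578). Together with *PAX2* and *CA9* they summed to 5493 to 5688 TPM in 786O WT and to 4211 to 4262 TPM in A4KO. Of these 6 markers, *PAX2*, another renal factor, rose in 786O from 11.2 ± 0.456 to 41.0 ± 2.87 TPM (1.78, limma adjusted p = 3.22e-06), and the other 5 fell, among them *PAX8* (-0.60, adjusted p = 4.48e-05) and the ccRCC marker *CA9*, which ran from 6.65 to 8.10 TPM in WT, against 0.116 to 0.469 TPM in A4KO. Immune markers summed to at most 0.602 TPM in any library. The endothelial marker *PECAM1* ran from 0.209 to 0.555 TPM in CAKi-1 WT, against 1.54 to 6.17 TPM in A4KO. In 786O it was at 0.850 to 1.44 TPM in WT, against 0.411 to 0.563 TPM in A4KO. The part of these marker shifts in the results was not tested.

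With loss of *ANGPTL4*, 5 of the 9 members passed the adjusted p in each line, where 39% of all genes did so in CAKi-1 and 61% in 786O. In CAKi-1, *FITM2* and *DGAT1* rose while *DGAT2*, *PLIN3* and *CIDEB* fell. In 786O, *PLIN2*, *DGAT2* and *PLIN3* rose while *PLIN4* and *HILPDA* fell. *DGAT2* and *PLIN3* were called in both lines, in opposite directions. All of these changes were smaller than 1 on the log2(TPM + 1) scale, and the calls of *CIDEB* in CAKi-1 and of *PLIN3* and *HILPDA* in 786O were lost in some alternatives, as given with each gene.

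Of the members called, 2 were higher and 3 lower in A4KO in CAKi-1, and 3 were higher and 2 lower in 786O. With the fold change threshold, 0 of 9 members were called in either line, against 3.33% of all genes in CAKi-1 and 7.62% in 786O. The A4KO and WT libraries did not overlap for 4 members in CAKi-1, as for 35.9% of all genes, and for 5 members in 786O, as for 66.9% of all genes. The median log2 fold change of the members was 0.15 in CAKi-1 and -0.036 in 786O, and that of all genes was -0.0078 and -0.030. The called share was above that of all genes in CAKi-1 and below it in 786O. In 786O the split changed to 4 members higher and 1 lower after quantile normalization, a share of 55.6% and still below the 60.2% of all genes. It changed to 3 higher and 4 lower with the shift of neighbouring genes on the chromosome taken off. That share, 77.8%, was above the 59.0% of all genes. With 9 genes none of these shares is a result about the members. With A4KO replicates 2, 3 and 5 alone, 4 of 9 members were called in CAKi-1, 2 in each direction, the median was -0.080, and 38.8% of all genes were called.

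**Figure D1:**
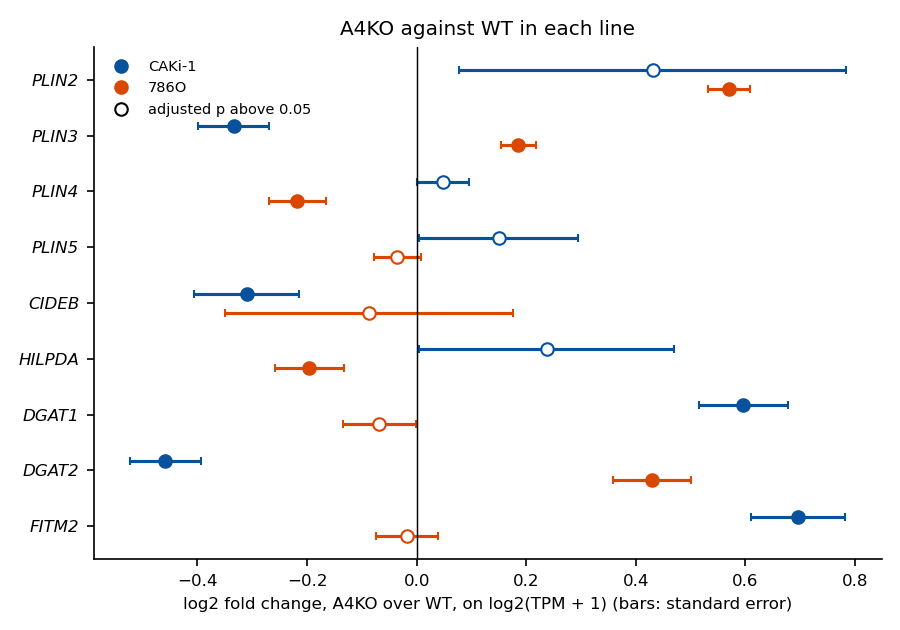
Log2 fold change of A4KO over WT on the log2(TPM + 1) scale (x axis) of the 9 members (y axis) in CAKi-1 (blue) and 786O (orange), with bars for the standard error and open circles where the adjusted p was above 0.05. *PLIN3* and *DGAT2* lie on opposite sides of 0 in the lines, and *DGAT1* and *FITM2* are at 0.60 and 0.70 in CAKi-1 and at -0.069 and -0.018 in 786O.

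DGAT1 and DGAT2 both catalyse the last step of triglyceride synthesis, and they are unrelated enzymes. *DGAT1* (chromosome 8, 144314584 to 144326910 on the minus strand of hg38) measured 10.6, 11.1, 10.9 and 13.1 TPM in CAKi-1 WT, against 18.6, 16.1, 16.3, 19.6 and 18.3 TPM in A4KO. All of the A4KO values lay over all of the WT values. The log2 fold change was 0.60 (SE 0.081, limma adjusted p = 5.35e-04), with p = 0.0159 in a two-sided exact permutation test, the smallest that 4 against 5 libraries can give. In 786O, *DGAT1* measured 30.0, 27.8 and 25.4 TPM in WT, against 27.3, 26.2 and 25.4 TPM in A4KO. These ranges overlap, and the log2 fold change of -0.069 (SE 0.067, limma adjusted p = 0.417) was within the spread of the libraries. It was 0.16 (adjusted p = 0.073) after the shift of neighbouring genes on the chromosome was taken off, so no direction is given for 786O. *DGAT1* overlaps *HSF1* on the opposite strand, and whether counting used strand is not given in the sources used here, so that reads of both may be mixed.

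*DGAT2* (chromosome 11, 75759512 to 75801535, plus strand) went the other way in CAKi-1. Its levels were 8.02, 8.41, 9.31 and 7.79 TPM in WT, against 5.51, 5.84, 5.75, 5.5 and 6.49 TPM in A4KO, again without overlap. It fell by 0.46 on the log2 scale (SE 0.065, limma adjusted p = 6.58e-04), with an exact permutation p of 0.0159, and by 0.30 (adjusted p = 0.0072) with the neighbours' shift taken off. In 786O, *DGAT2* rose from 2.89, 2.60 and 2.51 TPM in WT to 3.52, 4.26 and 4.05 TPM in A4KO. All 3 A4KO libraries were above the WT libraries, with a log2 fold change of 0.43 (SE 0.071, limma adjusted p = 0.00234), and of 0.65 after quantile normalization. With 3 against 3 libraries the exact permutation test cannot go below p = 0.1, and every 786O member whose groups did not overlap had that value. The effect in 786O minus that in CAKi-1 was 0.89 for *DGAT2* (SE 0.10, limma interaction term, adjusted p = 5.67e-06) and -0.66 for *DGAT1* (SE 0.12, adjusted p = 2.72e-04). For this difference 5 of the 9 members were called, 2 with a more positive effect in 786O and 3 with a more negative one, where 55.1% of the 15247 genes found in both lines were called (26.3% and 28.8%).

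The balance of the 2 transcripts can be read within a library, while amount and activity of the enzymes were not measured. *DGAT1* over *DGAT2* was 1.37 ± 0.219 (SD, n = 4) in CAKi-1 WT and 3.07 ± 0.374 (n = 5) in A4KO. In 786O the ratio was 10.4 ± 0.292 (n = 3) in WT and 6.73 ± 0.906 (n = 3) in A4KO. The 4 groups did not overlap, with ranges of 1.17 to 1.68, 2.75 to 3.57, 10.1 to 10.7 and 6.14 to 7.78. The ratio was thus higher in A4KO than in WT in CAKi-1 and lower in 786O. *DGAT1* was the more abundant transcript per length in every library.

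**Figure D2:**
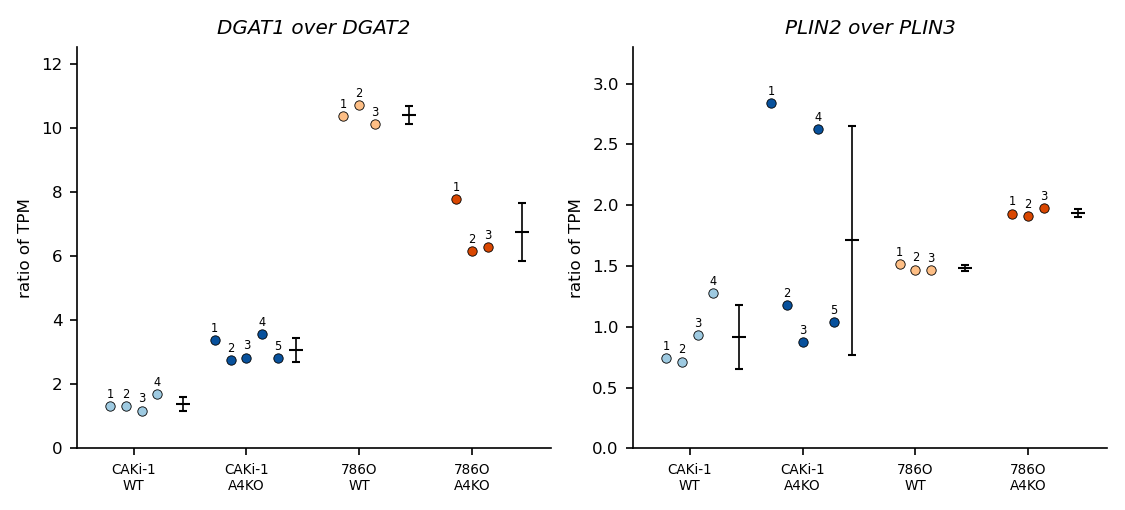
Ratio of TPM within each library (y axis) for *DGAT1* over *DGAT2* (left) and *PLIN2* over *PLIN3* (right) in the 4 groups (x axis), with replicate numbers beside the points and the mean ± SD as bars. The *DGAT1* to *DGAT2* ratio runs from 1.17 to 1.68 in CAKi-1 WT and from 2.75 to 3.57 in CAKi-1 A4KO, and from 10.1 to 10.7 in 786O WT and from 6.14 to 7.78 in 786O A4KO.

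FITM2, a protein of the endoplasmic reticulum that partitions triglyceride into nascent droplets, had the largest fold change of the 9 members in CAKi-1 on the log2(TPM + 1) scale. The gene lies on chromosome 20 (44302840 to 44311202, minus strand) with 2 exons and no overlapping gene. It measured 2.33, 2.18, 2.12 and 1.79 TPM in CAKi-1 WT, against 4.38, 3.7, 3.49, 4.79 and 3.86 TPM in A4KO. The groups did not overlap, and A4KO replicates 1 and 4 were the highest of them. The log2 fold change was 0.70 (SE 0.086, limma adjusted p = 3.30e-04), and the ratio of mean TPM was 1.92. In 786O, *FITM2* measured 6.83, 6.17 and 5.93 TPM in WT, against 6.28, 5.96 and 6.39 TPM in A4KO. The A4KO values fall inside the WT range, and the log2 fold change of -0.018 (SE 0.056, limma adjusted p = 0.809) was not called. This value depended on scaling. It was 0.16 (adjusted p = 0.049) after quantile normalization and -0.24 (adjusted p = 0.0054) after the shift of neighbouring genes on the chromosome was taken off, so no direction is given for 786O. For *FITM2* the effect in 786O minus that in CAKi-1 was -0.71 (SE 0.12, limma interaction term, adjusted p = 1.75e-04).

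*PLIN2* and *PLIN3* made up 99.69% to 99.97% of the summed TPM of the 4 perilipins in the 15 libraries, and *PLIN4* and *PLIN5* were below 1 TPM throughout. PLIN2 is the coat protein that sits on droplets in most cells outside fat tissue and is degraded when not bound to lipid, whereas PLIN3 is stable in the cytosol and moves onto new droplets. To show where transcription of these genes starts, the 250 bases before the RefSeq start site (GRCh38.p14) are printed below for *PLIN2* and *PLIN3*, the abundant coat genes, and for *FITM2*. They are written 5′ to 3′ on the strand of the gene, the minus strand in all 3 cases. Capitals mark the letters ACGTG or GCGTG on either strand (CACGT or CACGC when read on the other), the core of the sequence that HIF proteins bind, and CACGTG is a match on both strands. Such letters are common, since 43.2% of 35116 RefSeq promoter windows of this length hold ACGTG or GCGTG (18.5% the first and 32.2% the second). The match is a description and not a binding site.
PLIN2, chr9:19127493-19127742: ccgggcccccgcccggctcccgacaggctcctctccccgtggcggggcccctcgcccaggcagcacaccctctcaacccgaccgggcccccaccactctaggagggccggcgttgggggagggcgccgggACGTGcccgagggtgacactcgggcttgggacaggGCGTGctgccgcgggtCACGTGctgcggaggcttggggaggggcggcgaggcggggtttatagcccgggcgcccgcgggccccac
PLIN3, chr19:4867668-4867917: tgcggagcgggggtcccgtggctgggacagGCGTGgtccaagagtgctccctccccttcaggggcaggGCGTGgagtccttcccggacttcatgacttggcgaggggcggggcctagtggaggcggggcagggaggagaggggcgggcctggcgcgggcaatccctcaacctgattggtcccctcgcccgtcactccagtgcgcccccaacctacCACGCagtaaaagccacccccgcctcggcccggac
FITM2, chr20:44311203-44311452: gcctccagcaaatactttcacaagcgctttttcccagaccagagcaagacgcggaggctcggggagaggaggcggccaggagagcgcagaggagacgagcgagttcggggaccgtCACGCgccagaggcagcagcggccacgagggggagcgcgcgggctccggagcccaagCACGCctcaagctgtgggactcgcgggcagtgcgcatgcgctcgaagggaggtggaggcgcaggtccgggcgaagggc
The window of *PLIN2* holds 3 such stretches, the last of them CACGTG, that of *PLIN3* holds 3 and that of *FITM2* holds 2. Of the other members with a window used here, *PLIN5* held 2, *CIDEB* 1 in the first of its windows, and *PLIN4* 0. The *PLIN2* window lies within the annotated gene (chromosome 9, 19108375 to 19149290), whose longest transcripts start further upstream.

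*PLIN2* was the most abundant member in every 786O library, and in 786O A4KO it ranked 325 of 16188 genes by mean TPM. It measured 284, 272 and 271 TPM in 786O WT, against 409, 402 and 419 TPM in A4KO. The groups were tight and far apart. The log2 fold change was 0.57 (SE 0.038, limma adjusted p = 4.31e-05), and the ratio of mean TPM was 1.49. Neighbouring genes on chromosome 9 were lower in A4KO by a median of 0.31, and with this shift taken off the log2 fold change was 0.88 (adjusted p = 8.41e-06). On this scale it was the largest change among the 9 members in 786O. In CAKi-1, *PLIN2* measured 121, 115, 139 and 176 TPM in WT, against 333, 149, 111, 314 and 118 TPM in A4KO replicates 1 to 5. Replicates 1 and 4 had a mean of 2.36 times the WT mean, whereas replicates 2, 3 and 5 had a mean of 0.917 times it. With all libraries the log2 fold change was 0.43 (SE 0.35, limma adjusted p = 0.368), so no change of *PLIN2* was called in CAKi-1. With replicates 2, 3 and 5 alone, grouped after their values were seen, the log2 fold change was -0.12, which is a description. The effects in the lines differed by 0.14 (SE 0.46, limma interaction term, adjusted p = 0.820) over all libraries. Without CAKi-1 A4KO replicates 1 and 4, which had the highest *PLIN2* levels of that line, the difference was 0.69. That fit passed the adjusted p, but the libraries left out were picked by their values, so it is a description only.

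**Figure D3:**
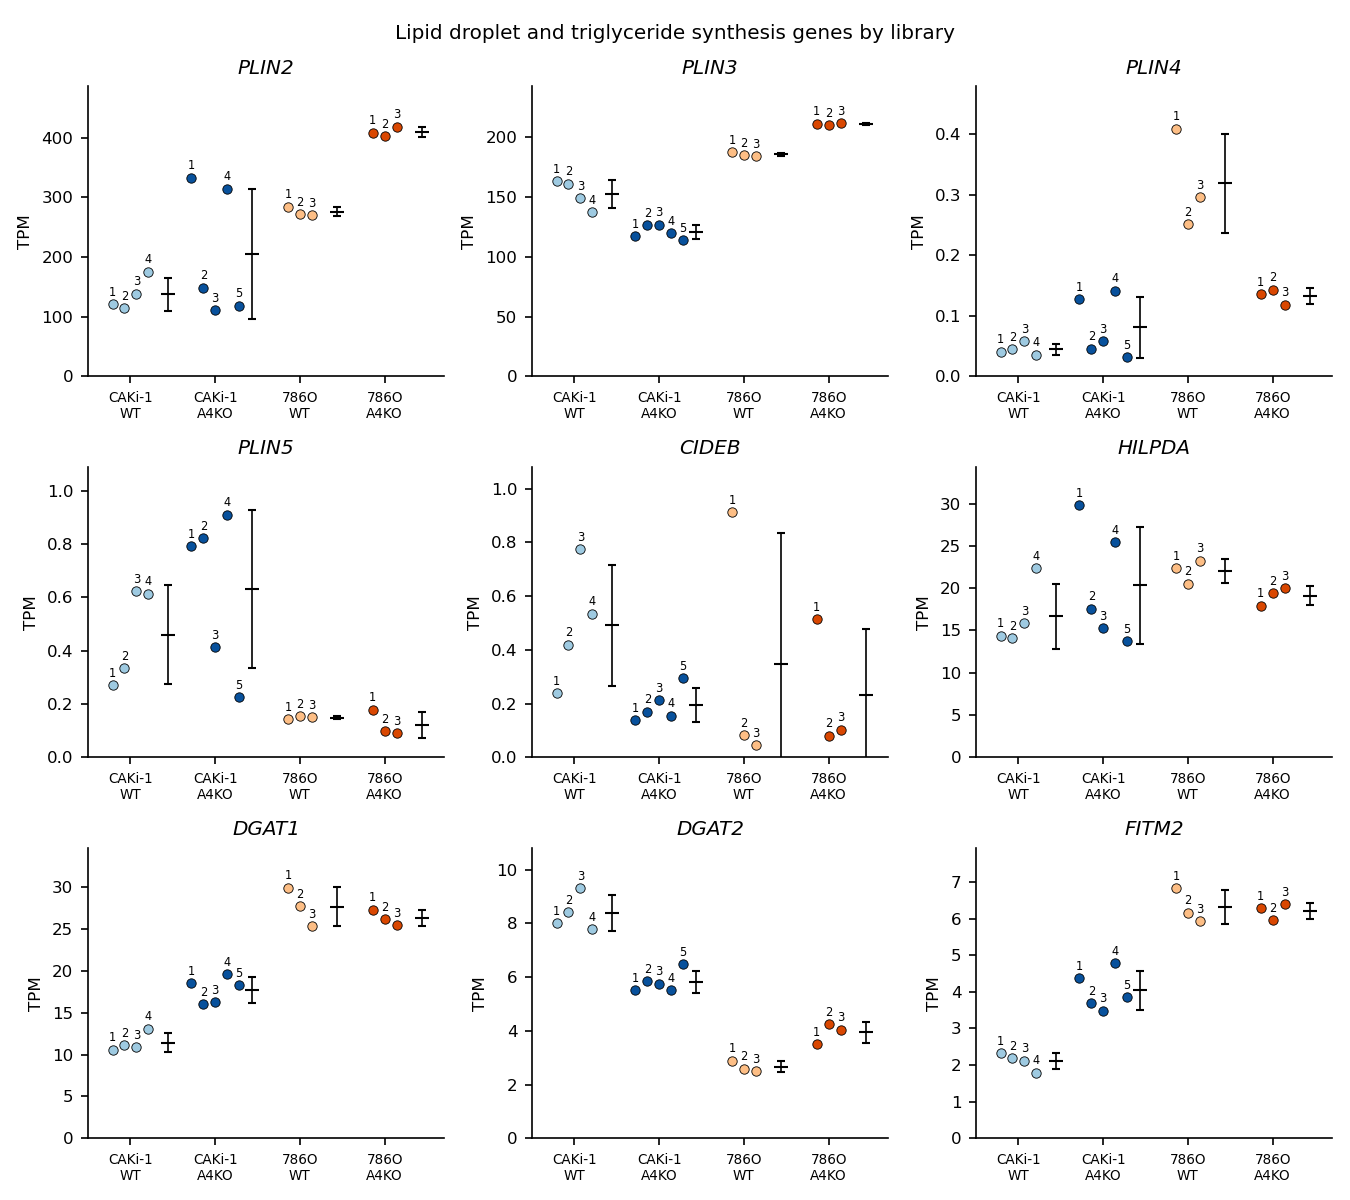
TPM (y axis, from 0) of the 9 members in each library of the 4 groups (x axis), with replicate numbers beside the points and the mean ± SD as bars, which for *CIDEB* in 786O run below 0 and end at the axis. *PLIN2* in CAKi-1 A4KO splits into replicates 1 and 4 at 333 and 314 TPM and the other 3 at 111 to 149 TPM, while *DGAT1*, *DGAT2*, *FITM2* and *PLIN3* of the same libraries do not overlap with WT.

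*PLIN3* (chromosome 19, 4838341 to 4867694, minus strand) measured 163, 161, 149 and 138 TPM in CAKi-1 WT, against 117, 126.3, 127, 119.8 and 114 TPM in A4KO. All A4KO libraries were below the WT libraries, and replicates 1 and 4 did not stand apart from the others. It fell by 0.33 on the log2 scale (SE 0.064, limma adjusted p = 0.0034). In 786O, *PLIN3* measured 188, 185 and 185 TPM in WT, against 212, 210.5 and 212 TPM in A4KO, a log2 fold change of 0.19 (SE 0.032, limma adjusted p = 0.0026). The groups did not overlap, but neighbouring genes on chromosome 19 were higher in A4KO by a median of 0.15, and with this shift taken off the log2 fold change was 0.033 (adjusted p = 0.447). The difference between the lines was 0.52 (SE 0.083, limma interaction term, adjusted p = 1.27e-04).

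Within a library, *PLIN2* over *PLIN3* was 0.914 ± 0.261 (SD, n = 4) in CAKi-1 WT and 1.71 ± 0.941 (n = 5) in A4KO. The A4KO values run from 0.874 to 2.84 and overlap with WT, with replicates 1 and 4 at 2.84 and 2.63 and the others at 0.874 to 1.18. In 786O the ratio was 1.48 ± 0.028 (n = 3) in WT and 1.94 ± 0.033 (n = 3) in A4KO, without overlap. The summed level of *PLIN2* and *PLIN3* was 461 ± 9.08 TPM in 786O WT and 621 ± 8.95 TPM in A4KO. In CAKi-1 it was 276 to 313 TPM in WT, 450.3 and 434 TPM in A4KO replicates 1 and 4, and 232 to 275 TPM in the other 3.

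The other perilipins were scarce. Their genes lie side by side on the minus strand of chromosome 19, *PLIN4* at 4502192 to 4518486 and *PLIN5* at 4522531 to 4535224. *PLIN4*, best known from fat cells, measured 0.409, 0.251 and 0.296 TPM in 786O WT, against 0.136, 0.143 and 0.118 TPM in A4KO. The groups did not overlap, and it fell by 0.22 on the log2(TPM + 1) scale (SE 0.052, limma adjusted p = 0.011), where the mean TPM of WT was 2.41 times that of A4KO. With a pseudocount of 0.1 the same comparison fell by 0.83, and with the neighbours' shift taken off it fell by 0.38. *PLIN4* overlaps *HDGFL2* on the opposite strand. In CAKi-1 it ran from 0.0355 to 0.0575 TPM in WT, against 0.0318 to 0.142 TPM in A4KO, with replicates 1 and 4 the highest, and was not called (limma adjusted p = 0.457). The effects in the lines differed by -0.27 (SE 0.071, limma interaction term, adjusted p = 0.0059). *PLIN5*, which ties droplets to mitochondria in oxidative tissues, ran from 0.270 to 0.622 TPM in CAKi-1 WT, against 0.226 to 0.909 TPM in A4KO. In 786O it ran from 0.142 to 0.154 TPM in WT, against 0.0897 to 0.179 TPM in A4KO. Its groups overlapped in both lines, with log2 fold changes of 0.15 (adjusted p = 0.449) and -0.036 (adjusted p = 0.513). The 786O value was 0.0017 after quantile normalization and -0.20 (adjusted p = 0.0079) after the shift of neighbouring genes was taken off, so no direction is given. The effects in the lines differed by -0.19 for *PLIN5* (limma interaction term, adjusted p = 0.434).

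CIDEB, a CIDE protein studied mainly in liver, was also expressed below 1 TPM. In CAKi-1 *CIDEB* measured 0.238, 0.419, 0.774 and 0.535 TPM in WT, against 0.138, 0.170, 0.212, 0.155 and 0.295 TPM in A4KO. The groups overlapped through WT replicate 1 and A4KO replicate 5. It fell by 0.31 on the log2(TPM + 1) scale (SE 0.096, limma adjusted p = 0.030), with an exact permutation p of 0.0317, and by 0.95 (adjusted p = 0.021) with a pseudocount of 0.1. The call was not kept when single libraries were left out, with adjusted p of 0.0527, 0.0673 and 0.0719 without WT replicates 2, 3 and 4 and of 0.0596, 0.0563 and 0.0596 without A4KO replicates 1, 2 and 4. With A4KO replicates 2, 3 and 5 alone the log2 fold change was -0.27, which is a description. In 786O, replicate 1 was high in both groups, at 0.912 TPM in WT and 0.513 TPM in A4KO, against 0.0444 to 0.103 TPM in the other 4 libraries. The log2 fold change was -0.087 (adjusted p = 0.800), 0.19 (adjusted p = 0.360) without WT replicate 1, and 0.80 (adjusted p = 0.033) after the neighbours' shift of -0.89 was taken off. No direction is given for 786O. The effects in the lines differed by 0.22 (limma interaction term, adjusted p = 0.491) over all libraries and by 0.51 (adjusted p = 0.038) without 786O WT replicate 1. *CIDEB* (chromosome 14, 24305187 to 24311430) overlaps *NOP9* and *LTB4R2* on the opposite strand, so its low values may hold reads of these genes.

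*HILPDA* (chromosome 7, 128455849 to 128458418, plus strand) measured 22.4, 20.5 and 23.3 TPM in 786O WT, against 17.9, 19.4 and 20.0 TPM in A4KO. The groups did not overlap, but the lowest WT library, at 20.5 TPM, was close to the highest A4KO library. It fell by 0.20 on the log2 scale (SE 0.063, limma adjusted p = 0.035). This call was near the threshold and was lost without WT replicate 1 or 3 or A4KO replicate 1 or 2 (adjusted p = 0.0942, 0.102, 0.0987 and 0.0688) and after quantile normalization (adjusted p = 0.0691). It was also lost with a pseudocount of 0.1 (adjusted p = 0.0501) and with the replicate number as a block (adjusted p = 0.0508), but centred on its neighbours it fell by 0.33 (adjusted p = 0.0029). In CAKi-1, *HILPDA* measured 14.4, 14.1, 15.9 and 22.3 TPM in WT, against 29.8, 17.6, 15.3, 25.4 and 13.7 TPM in A4KO. As for *PLIN2*, A4KO replicates 1 and 4 were the highest, at 1.66 times the WT mean, and the other 3 had a mean of 15.5 TPM against 16.7 TPM in WT. WT replicate 4 was the highest of its group for both genes. The log2 fold change was 0.24 (SE 0.23, limma adjusted p = 0.453) over all libraries and -0.080 with replicates 2, 3 and 5 alone. The difference between the lines of -0.43 (SE 0.31, limma interaction term, adjusted p = 0.250) was not called.

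**Figure D4:**
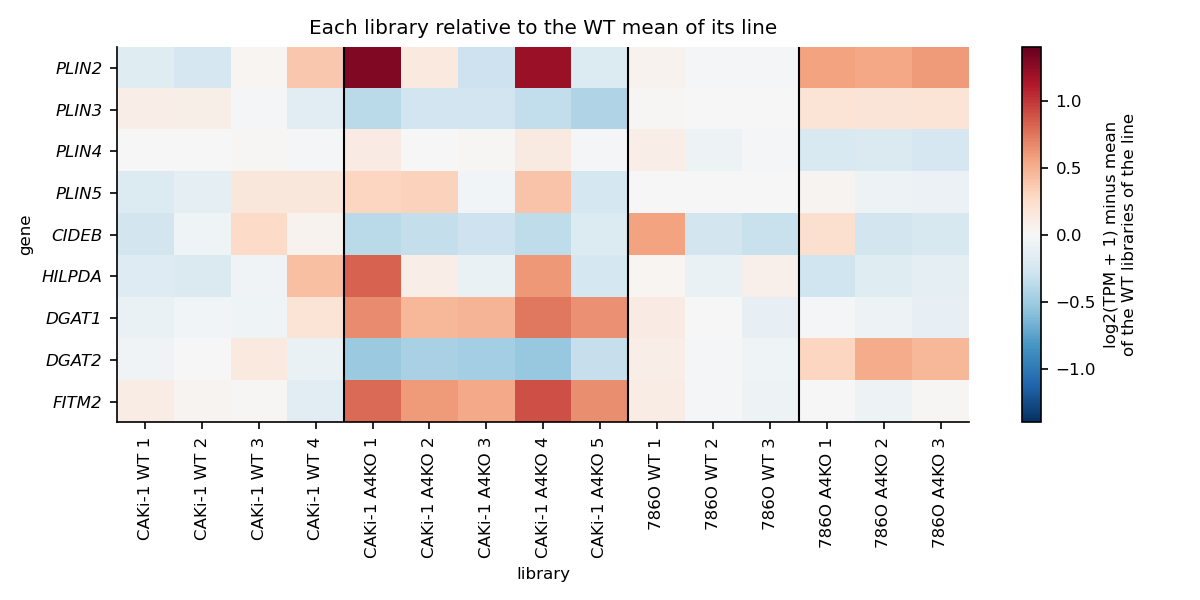
Each of the 15 libraries (x axis) for the 9 members (y axis), coloured by log2(TPM + 1) minus the mean of the WT libraries of the same line, with red above and blue below that mean. The columns of CAKi-1 A4KO replicates 1 and 4 are the darkest for *PLIN2* and *HILPDA*, and the row of *DGAT2* is blue in all 5 CAKi-1 A4KO libraries and red in all 3 786O A4KO libraries.

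Set against the CAKi-1 WT mean, the A4KO libraries that stood apart differed from the others in some members and not in others. The mean TPM of replicates 1 and 4 and that of replicates 2, 3 and 5 were on the same side of WT for *DGAT1* (1.67 and 1.48 times WT), *FITM2* (2.18 and 1.75), *DGAT2* (0.657 and 0.719), *PLIN3* (0.776 and 0.801) and *CIDEB* (0.298 and 0.459). For *PLIN2* they were at 2.36 and 0.917 times WT, for *HILPDA* at 1.66 and 0.931, for *PLIN4* at 3.02 and 1.01 and for *PLIN5* at 1.85 and 1.06, although for *PLIN5* replicate 2, at 0.821 TPM, was above replicate 1, at 0.792 TPM. *ANGPTL4* was also higher in replicates 1 and 4 (0.0867 times WT) than in the others (0.0364 times WT). The libraries were grouped after their values were seen, so these ratios are a description with no test.

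The order of the 4 groups by level was set across tables that may have been normalized separately, and is a description. *PLIN2* and *PLIN3* were highest in 786O A4KO, followed by 786O WT. For *PLIN2* the ranges of 786O WT and CAKi-1 A4KO overlapped, and so did those of CAKi-1 A4KO and WT. For *PLIN3* no neighbours in the order overlapped, with CAKi-1 A4KO the lowest. *DGAT1* and *FITM2* had the same order, with 786O WT and A4KO overlapping at the top, then CAKi-1 A4KO, then CAKi-1 WT. *DGAT2* had its own order, from CAKi-1 WT (8.38 ± 0.670 TPM) through CAKi-1 A4KO (5.82 ± 0.403) and 786O A4KO (3.94 ± 0.384) to 786O WT (2.66 ± 0.201), with no overlap. For *HILPDA* all neighbours overlapped, with group means between 16.7 and 22.1 TPM. *PLIN4* was highest in 786O WT, *PLIN5* in CAKi-1 A4KO and *CIDEB* in CAKi-1 WT, and for *CIDEB* all neighbours overlapped.

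No member passed the rule set for naming genes of like pattern, which asked for both thresholds. For *PLIN2*, taken after its values were seen, the genes with the smallest root mean square difference over the 15 libraries, each relative to the WT mean of its line, were *PFKFB3* (0.164), *APOL1* (0.179) and *LINC03009* (0.214) among 9503 genes, where the deviations of *PLIN2* itself had a root mean square of 0.546. *HILPDA* ranked 437 among the same genes (0.402) and *DGAT1* ranked 1345 (0.472).

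The other genes of the pathway came from lists of 47 genes, of which 42 were found in CAKi-1 and 43 in 786O. In CAKi-1, 6 of 42 rose and 10 fell, with a median log2 fold change of -0.0062, where 17.9% of all genes were higher and 21.1% lower. In 786O, 18 of 43 rose and 11 fell, with a median of 0.034, where 27.5% of all genes were higher and 33.5% lower. After quantile normalization in 786O, 19 rose and 10 fell, with a median of 0.12, where 32.6% of all genes were higher and 27.6% lower, so that the balance of all genes turned with the scaling. It turned in CAKi-1 too when centred on neighbours (20.8% higher and 17.4% lower), where 7 of the listed genes rose and 9 fell. With CAKi-1 A4KO replicates 2, 3 and 5 alone, 6 rose and 10 fell among the 42.

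Fatty acids are activated by acyl-CoA synthetases before they enter triglyceride. Of 5 such genes, 1 rose and 2 fell in CAKi-1, and 4 rose and 0 fell in 786O. *ACSL5* fell in CAKi-1 from 13.2 ± 1.20 to 6.08 ± 0.357 TPM (log2 fold change -1.0, adjusted p = 1.51e-05) and rose in 786O from 2.03 ± 0.298 to 4.42 ± 0.269 TPM (0.84, adjusted p = 2.07e-04), a difference between the lines of 1.85 (adjusted p = 1.05e-08). *ACSL4*, which prefers arachidonic acid, split like *PLIN2* in CAKi-1 A4KO, with replicates 1 and 4 at 428 and 419 TPM, the other 3 at 149 to 173 TPM and WT at 81.3 to 125 TPM (1.28, adjusted p = 0.019, and 0.0541 or 0.0521 without WT replicate 1 or 2), and with replicates 2, 3 and 5 alone its log2 fold change was 0.72. *ACSL1* rose in 786O (0.98, adjusted p = 4.87e-06). *ACSL3* was called at the threshold in both lines, and without single libraries its adjusted p reached 0.119 in CAKi-1 and 0.135 in 786O, where centring on neighbours gave 0.33 (adjusted p = 9.4e-04).

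Of 12 genes of the glycerolipid steps before DGAT, 0 rose and 3 fell in CAKi-1, and 6 rose and 3 fell in 786O. These counts moved with the settings. Centred on neighbours, 1 rose in CAKi-1 (*GPAM*, 0.33, adjusted p = 0.0083) and 4 rose and 3 fell in 786O, and after quantile normalization 1 rose in CAKi-1 (*AGPAT1*, 0.17, adjusted p = 0.028). *GPAT4* passed in CAKi-1 without A4KO replicate 5 (-0.25, adjusted p = 0.027), and with the replicate block, where that library is left out too (adjusted p = 0.025). Its rise in 786O (0.23, adjusted p = 0.0496) was lost in 7 of 12 alternatives. *GPAT3*, which adds the first acyl chain to glycerol 3-phosphate, fell in both lines (-0.95, adjusted p = 7.14e-04 in CAKi-1 and -0.34, adjusted p = 0.0023 in 786O). *AGPAT2*, which adds the next acyl chain, rose in 786O (0.62, adjusted p = 3.39e-05), but centred on its neighbours its value was 0.0098 (adjusted p = 0.833), and its fall in CAKi-1 (-0.29, adjusted p = 0.027) was lost after quantile normalization (adjusted p = 0.142), with the replicate block (0.0739) and without any of 5 single libraries (0.0509 to 0.0671). In 786O, *GPAM* (-0.60, adjusted p = 6.58e-05) and *AGPAT1* (-0.53, adjusted p = 8.89e-05) of the same steps fell. *LPIN1*, a phosphatidate phosphatase that makes the diacylglycerol used by DGAT enzymes, fell in CAKi-1 (-0.72, adjusted p = 3.63e-04).

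Of 12 genes of droplet formation and other droplet proteins, 2 rose and 4 fell in CAKi-1 (17.9% and 21.1% of all genes). Of 13 in 786O, 6 rose and 1 fell (27.5% and 33.5% of all genes). After quantile normalization 3 rose and 3 fell in CAKi-1, and 7 rose and 0 fell in 786O. Centred on neighbours, 2 rose and 3 fell in CAKi-1, and 7 rose and 3 fell in 786O. *METTL7B*, a droplet-associated methyltransferase, rose in 786O from 0.928 ± 0.073 to 8.41 ± 0.774 TPM (2.29, adjusted p = 2.14e-06), the largest rise of the 43 listed genes. Its fall in CAKi-1 (-0.34, adjusted p = 0.037) was lost centred on neighbours (adjusted p = 0.244) and with the replicate block (0.0832). The call was also lost without any of 6 single libraries (0.0572 to 0.0992). With A4KO replicates 2, 3 and 5 alone its log2 fold change was -0.25. *HSD17B11*, a droplet-bound dehydrogenase, rose in both lines (0.56, adjusted p = 3.16e-04 in CAKi-1 and 1.18, adjusted p = 1.07e-05 in 786O). The droplet hydrolase *LDAH* (1.01, adjusted p = 1.59e-05) and *SPART* (0.54, adjusted p = 8.22e-05) rose in 786O, and *RAB18*, a GTPase of droplets, fell in CAKi-1 (-0.43, adjusted p = 0.0017). *SPART* was also among the 4 that fell in CAKi-1 (-0.14, adjusted p = 0.049), but this call was lost in 14 of 16 alternatives, every fit with a library left out among them (adjusted p of 0.0507 to 0.635). *SOAT1*, which makes the sterol esters of the droplet core, fell in CAKi-1 from 90.8 ± 7.13 to 57.5 ± 2.72 TPM (-0.65, adjusted p = 1.05e-04) and rose in 786O from 52.8 ± 1.91 to 90.9 ± 1.13 TPM (0.77, adjusted p = 1.51e-05), a difference of 1.42 (adjusted p = 1.40e-08), and was 1 of 2 sterol ester genes listed.

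Of 6 genes of triglyceride breakdown, 0 were called in CAKi-1, and 1 rose and 4 fell in 786O. *MGLL*, which splits the monoglyceride left by the other lipases, was at -0.21 in CAKi-1 and at -0.32 without A4KO replicates 1 and 4. With 1 library left out it passed only without A4KO replicate 1 (-0.26, adjusted p = 0.026). *G0S2*, an inhibitor of adipose triglyceride lipase like *HILPDA*, fell in 786O from 72.3 ± 3.34 to 19.0 ± 1.65 TPM (-1.88, adjusted p = 4.89e-06), and *ABHD5*, the activator of the same lipase, fell from 28.4 ± 0.526 to 15.2 ± 0.411 TPM (-0.86, adjusted p = 7.86e-06). *PNPLA3*, of the same family as the lipase, fell by 0.49 (adjusted p = 6.41e-04). *PNPLA2*, which encodes the lipase itself, fell by 0.15 (adjusted p = 0.025) and *LIPE*, hormone-sensitive lipase, rose by 0.16 (adjusted p = 0.022). The calls of *PNPLA2* and *LIPE* were each kept in only 6 of 12 alternatives, with adjusted p of up to 0.714 and 0.0721, and that of *HILPDA* was lost in 7 of 12.

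**Figure D5:**
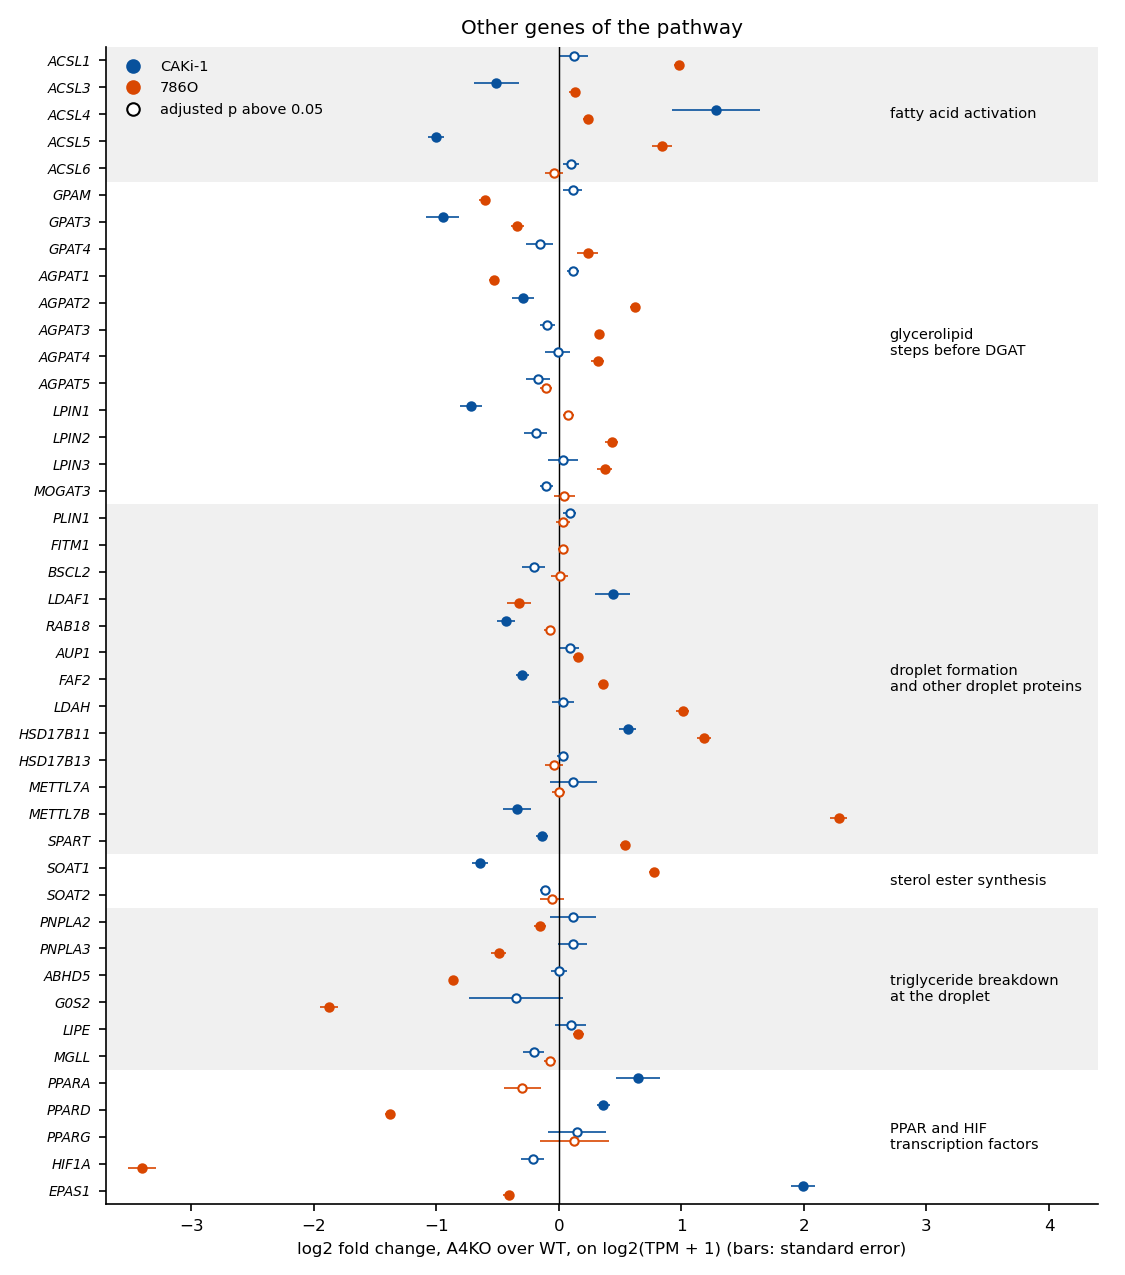
Log2 fold change of A4KO over WT on the log2(TPM + 1) scale (x axis) of the listed pathway genes (y axis, grouped by role with shading) in CAKi-1 (blue) and 786O (orange), with bars for the standard error and open circles where the adjusted p was above 0.05. *ACSL5* and *SOAT1* lie on opposite sides of 0 in the lines, *METTL7B* is at 2.29 and *HIF1A* at -3.4 in 786O, and *EPAS1* is at 1.99 in CAKi-1.

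Of the 5 PPAR and HIF genes, 3 rose and 0 fell in CAKi-1, and 0 rose and 3 fell in 786O. *EPAS1*, which encodes the HIF2 alpha subunit, rose in all 5 CAKi-1 A4KO libraries, from 27.5 ± 3.34 to 112 ± 11.9 TPM (1.99, adjusted p = 2.66e-06), and fell in 786O from 86.2 ± 3.77 to 64.6 ± 1.36 TPM (-0.41, adjusted p = 3.46e-04). *HIF1A* fell in 786O from 181 ± 6.0 to 16.3 ± 2.66 TPM (-3.4, adjusted p = 3.16e-06), and in CAKi-1 it had -0.21 (adjusted p = 0.106) over all libraries and -0.27 (adjusted p = 0.035) without A4KO replicate 4. *PPARD* rose in CAKi-1 (0.36, adjusted p = 8.12e-04) and fell in 786O (-1.38, adjusted p = 1.86e-06), and *PPARA* rose in CAKi-1 (0.65, adjusted p = 0.019, but 0.0551 without WT replicate 4 and 0.0792 with the replicate block). In 786O A4KO, *PLIN2* was thus higher while the *HIF1A*, *EPAS1* and *PPARD* transcripts were lower than in WT. *HILPDA* was lower too, but its call was kept in only 5 of 12 alternatives. The relation between these values was not tested.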

How the data were processed

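RNA of 15 libraries from CAKi-1 and 786O cells was analysed, grouped by line and genotype as the labels give them. Per the labels, the authors made poly(A) libraries with the NEBNext Ultra II kit, sequenced paired ends and pseudoaligned them with kallisto to hg38. They deposited gene-level TPM for each line, a unit read from the values, since library sums lie between 961437 and 973887. The step from transcripts to genes is not given in the sources used here. Values at exactly 0 numbered 0. The labels give a nominal 3000000 reads per sample. The reads and effective lengths of each library are not kept in TPM, so counting error was not given.

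A4KO was compared with WT in each line on log2(TPM + 1), using limma 3.58.1 (lmFit and then eBayes, R 4.3.3) with no filter on low values. Tests were two-sided, and p-values were adjusted over all genes of a line after Benjamini and Hochberg. All adjusted p are from these models. The difference between the lines was an interaction term over the 15247 shared genes. Single members were also compared by exact permutation tests (scipy 1.17.1). The code was tested on simulated data.

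Named genes were every member, *ANGPTL4*, and from each pathway list the genes past the adjusted p whose log2 fold change was 0.5 or more in size in either line and the gene of highest TPM. *PNPLA2*, *PNPLA3*, *LIPE*, *PAX2*, *PAX8* and *CA9* were added after their values were seen. Members, lists and alternatives were chosen with earlier results of these data known.

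Alternatives were a pseudocount of 0.1, a filter at a mean of 1 TPM, quantile normalization, trend and robust options, a replicate block, each library left out, CAKi-1 A4KO replicates 2, 3 and 5 alone, TPM rescaled over shared genes, and centring on chromosomal neighbours, where each library had the median shift of 25 expressed genes on either side of a gene subtracted from it. Gene positions are from GENCODE release 44 (hg38) and promoter windows from RefSeq (GRCh38.p14).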

Additional observations from a re-analysis of the deposited data

Results flagged for a closer look

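The A4KO effect differed between the lines for 5 of 9 members by the limma interaction term, where 55.1% of the 15247 shared genes were called, so that this count is at the rate of all genes. The effect in 786O minus that in CAKi-1 was 0.52 for *PLIN3*, -0.27 for *PLIN4*, -0.66 for *DGAT1*, 0.89 for *DGAT2* and -0.71 for *FITM2*, on the log2(TPM + 1) scale. These calls held in all alternatives run for them, with differences of 0.49 to 0.57, -1.12 to -0.22, -0.73 to -0.60, 0.84 to 1.06 and -0.93 to -0.61. Neighbour-centred values and quantile normalization were not run for this difference.

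*RAB18* in CAKi-1 A4KO replicate 5, at 107 TPM, stood apart from the other 4 libraries of its group, which were at 85.1 to 90.5 TPM. Of 68 group values tested, all of them in CAKi-1, this was the only 1, where chance alone flags about 1 in 20. The 786O groups, with 3 libraries each, were too small for this rule and were not tested.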

How the results depend on the processing

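Every total of called genes or members stayed within 1.5 times its main value, except that a pseudocount of 0.1 raised the genes past fold change and adjusted p from 543 to 1077 in CAKi-1 and from 1233 to 2095 in 786O. Leaving out 1 library gave 477 to 608 and 1221 to 1243 such genes, 4 to 5 called members in each line, and 5 to 6 for the difference between the lines. The split of the members called in 786O moved more, from 3 higher and 2 lower to 4 and 1 after quantile normalization and to 3 and 4 neighbour-centred. Of the 786O genes past fold change and adjusted p, 31.9% were higher in A4KO, and 42.7% after quantile normalization. The calls of *DGAT1*, *DGAT2*, *FITM2* and *PLIN3* in CAKi-1 and of *PLIN2*, *DGAT2* and *PLIN4* in 786O held in every alternative run, and those of *CIDEB*, *HILPDA* and of *PLIN3* in 786O did not, for causes that were not tested. TPM rescaled over the shared genes moved *PLIN2* and *PLIN3* in 786O by more than the replicate SD, to 285 and 192 TPM in WT and to 423 and 218 TPM in A4KO. The planned fit of A4KO replicates 1 and 4 alone was not run. Both it and the fit without them group libraries by their data, so the latter is given only to show values with and without them, and a gene that passed in it alone is not reported as changed. Depth per library is not kept in TPM, which limits the reading of *PLIN4*, *PLIN5* and *CIDEB* most.

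Neighbour-centred, some pathway calls moved by over 1.5 times in size and held, in 786O *ACSL1* (0.63), *AGPAT1* (-0.18), *GPAT3* (-0.70, and -0.22 after quantile normalization) and *SPART* (0.17), and in CAKi-1 *RAB18* (-0.27) and *SOAT1* (-0.41). *AUP1* in 786O was at 0.44 neighbour-centred, but its call was lost with the replicate block (adjusted p = 0.0527) and without WT replicate 3 or A4KO replicate 2 or 3 (0.0524, 0.0562 and 0.0508). The following log2 fold changes turned sign. In CAKi-1 with A4KO replicates 2, 3 and 5 alone these were *PLIN2* (-0.12), *HILPDA* (-0.080), *ACSL1* (-0.061) and *ABHD5* (0.0020), and neighbour-centred they were *PLIN4* (-5.35e-04) and *AGPAT1* (-0.020). *LDAH* became -0.034 with the replicate block. With 1 library left out, *LDAH* ran from -0.034 (without A4KO replicate 5) to 0.083, *ABHD5* from -0.051 to 0.033 (above 0 without WT replicate 1 or 2 or A4KO replicate 1, 2 or 3), and *G0S2* from -0.70 to 0.060 (without WT replicate 4). In 786O these were *PLIN5* (0.0017) and *FITM2* (0.16) after quantile normalization, *CIDEB* (0.80), *DGAT1* (0.16) and *LPIN1* (-0.11) neighbour-centred, and with 1 library left out *CIDEB* (-0.24 to 0.19) and *FITM2* (-0.055 to 0.033, above 0 without WT replicate 1 or A4KO replicate 2). The difference between the lines turned for *PLIN2* without CAKi-1 A4KO replicate 3 or 5 (range with 1 library left out -0.040 to 0.35) and with the replicate block (-0.016), and for *AUP1* with A4KO replicates 2, 3 and 5 alone (-0.030).

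Replicate numbers did not pair the libraries. Deviations from the group means of libraries with the same number correlated at -0.062, 0.121, -0.037 and 0.135 in CAKi-1 and at -0.046, 0.020 and 0.0078 in 786O. With the replicate number as a block, 603 and 1233 genes passed fold change and adjusted p, 5609 and 9312 passed the adjusted p alone, and 5 and 4 members were called. For the difference between the lines, 8210 genes and 5 members were called with the block.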
